A study of Mus musculus with 6 samples.

Results

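The genes described here are the variable segments of the T cell receptor alpha and beta chains, whose symbols start with Trav or Trbv, and the constant genes of both chains, Trac, Trbc1 and Trbc2. The members were chosen by their measured counts, which had to come to at least 10 when summed over all 6 libraries, and those sums are given as a description only. It took 96 of the 166 such genes in a table of 56748 genes: 71 of 128 Trav genes, 22 of 35 Trbv genes and the 3 constant genes.

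The libraries came from naive CD4 T cells of wild-type C57BL/6 mice, 6 to 10 weeks old, taken from spleen and lymph nodes by negative selection and grown for 3 days under Treg polarizing conditions. From day 0 the cultures held 10 μM of an antisense oligonucleotide (ASO), a short synthetic nucleic acid made to lower a chosen transcript. In 3 libraries, labelled scrambled ASO, its sequence was scrambled, and in the other 3, labelled Pgam ASO, it was directed at phosphoglycerate mutase, an enzyme of glycolysis. Polyadenylated RNA of the whole, unsorted culture was sequenced, to ask how phosphoglycerate mutase bears on the formation of regulatory T cells.

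The groups are called by their labels throughout, and the transcripts aimed at are given first. Pgam1 had 10655, 8847 and 11414 counts in the libraries labelled scrambled ASO, against 10601, 10299 and 11949 in those labelled Pgam ASO. Pgam2 had 93, 125 and 46 counts under the scrambled label and 48, 42 and 44 under the Pgam label. The ranges of the labels overlapped for both genes. The log2 difference was 0.18 for Pgam1 (SE 0.126, adjusted p 0.331) and -0.84 for Pgam2 (SE 0.313, adjusted p 0.0854), in edgeR. Pgam2 was called without the filter on low counts (adjusted p 0.0292) and without scrambled ASO replicate 3 (0.0145). Library totals ran from 15860476 to 18032805 counts, and all levels below are CPM, a library's counts scaled to a common total with edgeR's TMM factors.

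A developing T cell cuts and joins its receptor genes in the thymus: a variable segment is joined to a joining segment, in the beta chain with a diversity segment between them, and the product is spliced to a constant gene. The variable segment carries the signal peptide and much of the surface that meets peptide and MHC, and a mature CD4 cell keeps the segments it chose. A culture of many clones therefore holds a mixture of segments. In such pooled RNA, fewer cells of a type and less RNA per cell cannot be told apart.

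The cultures held the transcripts of alpha beta T cells. All 5 markers chosen for them (Trac, Trbc1, Trbc2, Cd3e and Cd4) were counted in every library, Cd4 being the most abundant. Their summed level was 2066, 2260 and 1928 CPM under the scrambled label and 1626, 1762 and 1823 CPM under the Pgam label. Every library labelled Pgam ASO lay below every library labelled scrambled ASO in that sum.

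Among the constant genes, Trac alone passed the test between the labels in edgeR. Trbc1, Trbc2 and the summed Trav and Trbv segments also had lower CPM in every library labelled Pgam ASO than in any labelled scrambled ASO. No segment was called for its share within its chain in edgeR with the filter on low counts. Trac, the constant region of every alpha chain, had 5825, 6452 and 5044 counts in the libraries labelled scrambled ASO, against 3954, 4234 and 4817 in those labelled Pgam ASO. The groups did not overlap. Its level fell by 0.30 on the log2 scale (SE 0.088, adjusted p 0.0416 in the quasi-likelihood test of edgeR, with Benjamini-Hochberg correction over 14936 genes), from 329.6 ± 18.04 CPM to 267 ± 20.1 CPM (SD, n = 3), lower in 3 of 3 libraries. These p-values measure spread between these samples.

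Trbc1 and Trbc2 are the alternative constant regions of the beta chain, each behind its own cluster of joining segments. Trbc1 had 5617, 6880 and 4791 counts under the scrambled label and 4058, 4255 and 4588 under the Pgam label. Trbc2 had 7798, 9378 and 6712 counts against 5417, 6331 and 6789. The counts of Trbc1 did not overlap, and those of Trbc2 did by a single library, although its CPM did not. The log2 difference was -0.31 for Trbc1 (SE 0.098, adjusted p 0.0555 in edgeR, 0.0339 in DESeq2) and -0.25 for Trbc2 (SE 0.105, adjusted p 0.121 in edgeR). Trbc1 also passed in edgeR without the filter on low counts (adjusted p 0.0277), with library size alone, and without scrambled ASO replicate 3 (0.0253). The genes share 44.8% (Trbc1) and 48.5% (Trbc2) of their 31-base stretches with other transcripts. Trbc1 gave 42.0% ± 0.340 of the Trbc counts under the scrambled label and 41.1% ± 1.48 under the Pgam label (SD, n = 3; exact permutation p 0.4, two-sided), with overlap between the labels. Per kilobase of exon, the mean over 6 libraries was 603 ± 80.0 CPM for Trbc2, 396 ± 57.2 for Trbc1 and 319 ± 40.7 for Trac (SD, n = 6).

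The variable segments, summed over each chain, were lower as well. The 71 Trav members summed to 1317, 1265 and 1153 counts in the libraries labelled scrambled ASO, against 748, 891 and 1043 in those labelled Pgam ASO. Their summed level was 71.3 ± 2.90 CPM against 55.1 ± 7.83 CPM (SD, n = 3), 22.7% lower. The 22 Trbv members summed to 3100, 3668 and 2586 counts against 2219, 2210 and 2609, or 178 ± 19.1 CPM against 145 ± 8.64 CPM, 18.5% lower. In CPM neither sum overlapped between the labels. Each difference had an exact permutation p of 0.1 (two-sided), which is the smallest that 3 libraries against 3 allow, so this test cannot pass 0.05.

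**Figure D1:**
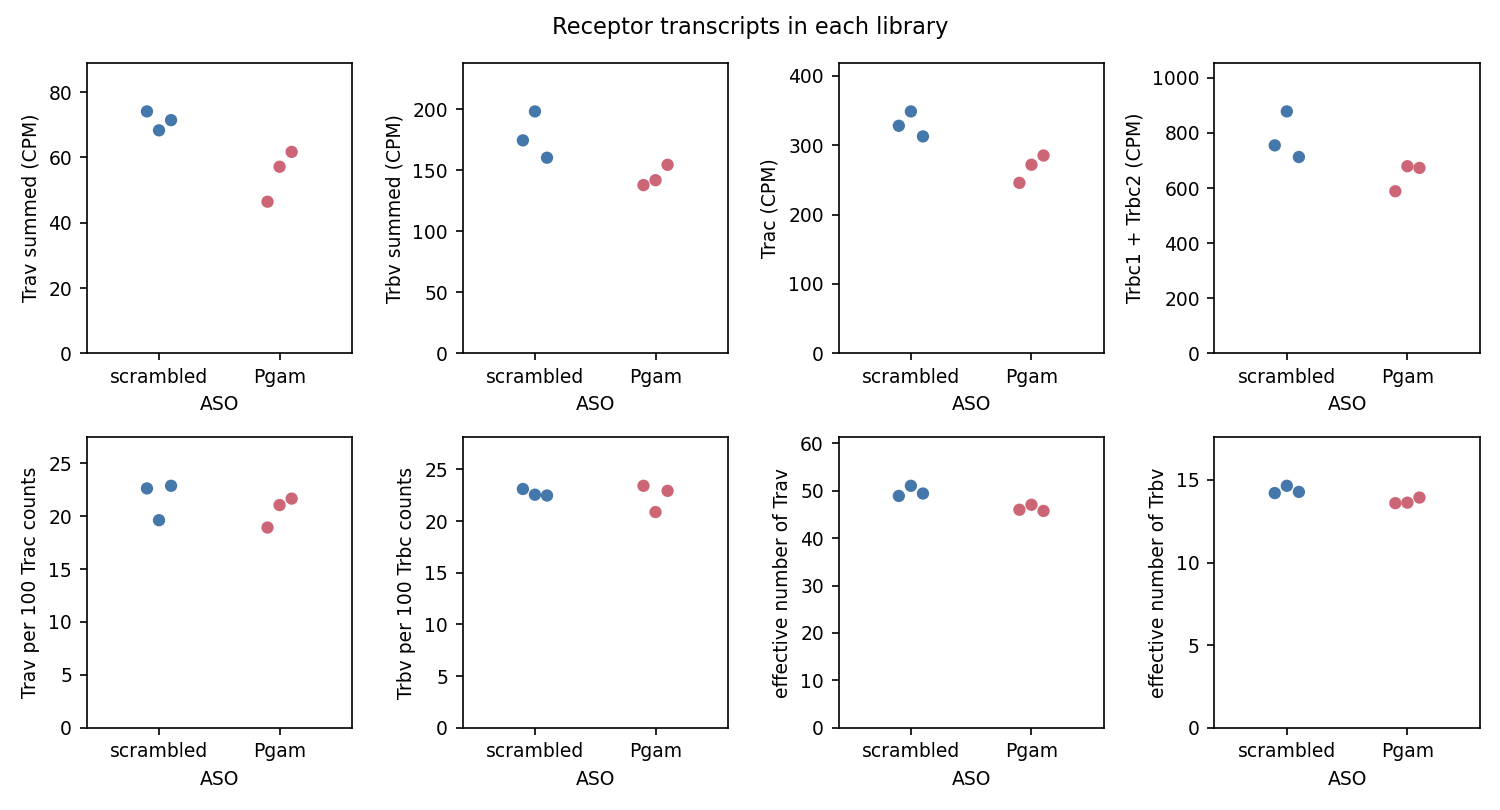
Summed level of Trav and Trbv segments and level of the constant genes (CPM), variable counts per 100 constant counts, and effective number of segments, with 1 point per library and all axes from 0. The levels under the Pgam ASO label sit below those under the scrambled ASO label, and the counts of variable per constant transcript overlap.

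Set against the constant genes, the variable segments overlapped between the labels. Trav members had 22.6, 19.6 and 22.9 counts per 100 Trac counts in the libraries labelled scrambled ASO, against 18.9, 21.04 and 21.6 in those labelled Pgam ASO. Trbv members had 23.1, 22.6 and 22.5 counts per 100 Trbc counts against 23.4, 20.9 and 22.9. The labels overlapped in both ratios (exact permutation p 0.5 for alpha and 0.9 for beta, two-sided). Per kilobase of exon, summed Trbv reached 436 ± 46.9 CPM and summed Trav 183 ± 8.42 CPM under the scrambled label (SD, n = 3), beside 352 ± 21.1 and 140.3 ± 18.9 under the Pgam label.

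Of the 96 members, 58 passed edgeR's filter on low counts (38 Trav, 17 Trbv and the 3 constant genes) and 38 did not. In the test between labels, 6 of these 58 were lower and 0 higher in the libraries labelled Pgam ASO at an adjusted p under 0.05. The 6 are 10.3% of those tested, while 9.15% of all genes tested were called lower, 8.03% higher and 17.2% in either direction, so the share called is near the background. DESeq2 called 7 members, all of them lower, where it called 21.5% of all genes tested in either direction. At an unadjusted p under 0.05 edgeR had 15 of the 58 members. The share of all genes at that threshold is not given, so this count is not read as a result. By direction alone, 48 of the 58 had a log2 difference below 0, with a median of -0.40, beside -0.0061 over all genes tested. Among the 58, 20 had every library labelled Pgam ASO below every library labelled scrambled ASO (34.5%, against 19.8% of all genes tested), and none had the reverse order. Counting either order, 39.5% of all genes tested had labels that did not overlap.

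The calls did not hold with every library left out. Without scrambled ASO replicate 1, Pgam ASO replicate 1 or Pgam ASO replicate 2, the count of 6 went to 0. It was 1 without scrambled ASO replicate 2 and 3 without Pgam ASO replicate 3. In the 3 fits with 0, edgeR called 4.02%, 5.6% and 2.51% of all genes tested, in that order, beside 17.2% with all libraries. The log2 difference of Trac in those fits was -0.310, -0.241 and -0.313. That of Trbv15 was -0.609, -0.640 and -0.574.

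Besides Trac, the genes called were Trbv12-2, Trbv13-3, Trbv15, Trbv20 and Trav14-3. Trbv12-2 (ENSMUSG00000094525, chromosome 6, 41118851 to 41119364) had 183, 216 and 128 counts under the scrambled label and 97, 71 and 108 under the Pgam label. It fell by 0.82 on the log2 scale (SE 0.21, adjusted p 0.0286). Trbv13-3 (ENSMUSG00000076470, 41130147 to 41130585) had 82, 116 and 83 counts against 49, 47 and 60. It fell by 0.74 on the log2 scale (SE 0.223, adjusted p 0.0475). In both genes the highest library labelled Pgam ASO lay below the lowest labelled scrambled ASO. Both belong to the group of Trbv12 and Trbv13 genes that alternate along chromosome 6 of GRCm38.

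Trbv15 (ENSMUSG00000076472, 41141188 to 41141658) had 181, 206 and 159 counts in the libraries labelled scrambled ASO, against 119, 105 and 111 in those labelled Pgam ASO, a fall by 0.59 on the log2 scale (SE 0.158, adjusted p 0.0321). Trbv20 (ENSMUSG00000076476, 41188273 to 41188977) had 157, 198 and 151 counts against 107, 100 and 103, a fall by 0.59 on the log2 scale (SE 0.166, adjusted p 0.0374). The labels did not overlap in either gene, and the libraries labelled Pgam ASO lay close together. Trav14-3 (ENSMUSG00000094212, chromosome 14, 53763173 to 53763694) had 57, 47 and 60 counts against 28, 23 and 26, a fall by 0.99 on the log2 scale (SE 0.276, adjusted p 0.0372). No other alpha segment was called, and its labels did not overlap. Its close copies Trav14d-3-dv8 (25, 47 and 45 counts against 34, 38 and 31) and Trav14n-3 (59, 41 and 36 against 23, 14 and 49) overlapped between the labels. With the 3 copies summed, the log2 difference was -0.55 (SE 0.189, adjusted p 0.0691), which is no longer a call.

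The question of segment use is whether a segment's share of its own chain differed, apart from the lower level of the whole chain. With each segment measured against the summed counts of its chain, edgeR called 0 of 55 segments at an adjusted p under 0.05. In the same fit 17.1% of all genes tested were called. All genes other than Trav and Trbv were tested there for level, so that percentage is not a rate for shares. At an unadjusted p under 0.05 there were 3 of the 55 segments (Trbv1, Trbv12-2 and Trav7-6), a count likewise given without a share of all genes and not read as a result. DESeq2 called 0 segments, and 21.5% of all genes tested, with the other genes again tested for level. The log2 difference in share ran from -0.51 to 0.36 over the 17 Trbv segments tested and from -1.17 to 0.73 over the 38 Trav segments.

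**Figure D2:**
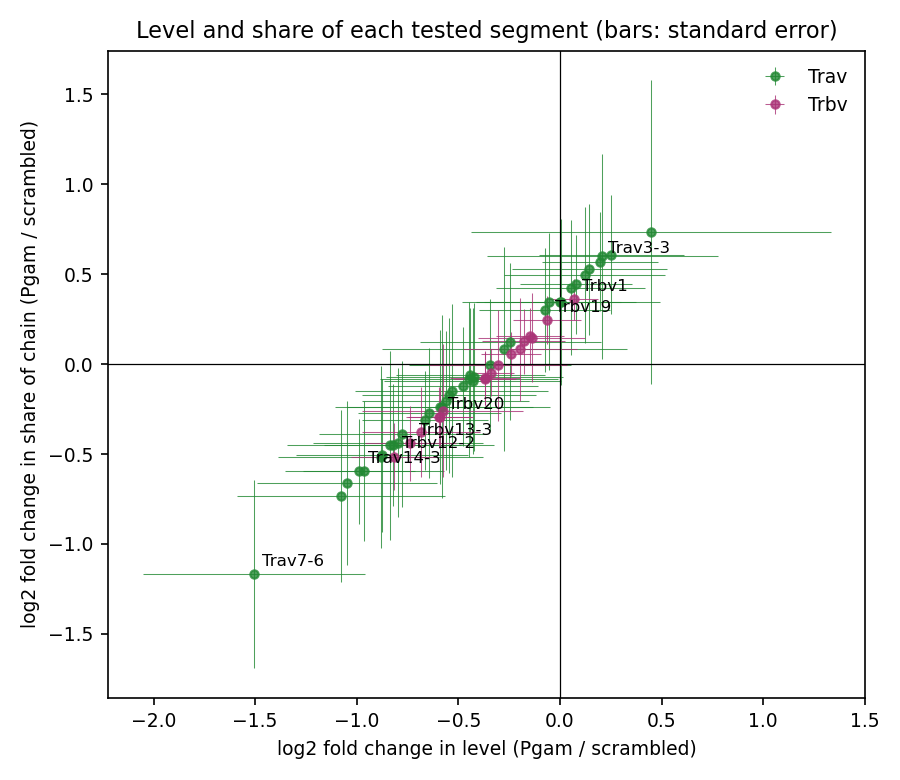
Log2 difference in level (horizontal axis) and in share of the chain (vertical axis), Pgam ASO over scrambled ASO, for the 55 tested segments; bars are standard errors. Most points lie left of 0 in level and around 0 in share, and the less counted Trav segments have the longest bars.

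In the beta chain, Trbv3, Trbv1, Trbv13-2 and Trbv19 had the largest mean shares under both labels. Trbv3 had 443, 469 and 411 counts in the libraries labelled scrambled ASO, against 300, 344 and 325 in those labelled Pgam ASO, or 14.3% ± 1.55 and 13.8% ± 1.58 of Trbv counts (SD, n = 3). Trbv1 had 367, 373 and 283 counts against 302, 320 and 370, or 10.98% ± 0.836 and 14.1% ± 0.442. Trbv13-2 had 340, 443 and 293 counts against 279, 234 and 329, or 11.5% ± 0.566 and 11.9% ± 1.16. The shares of Trbv3 and Trbv13-2 overlapped, while every share of Trbv1 under the Pgam label was above every one under the scrambled label. Per kilobase of exon these led the chain in another order, with means of 55.4 ± 8.70 CPM for Trbv13-2, 49.7 ± 6.84 for Trbv3 and 47.8 ± 3.70 for Trbv1 (SD, n = 6). They differ by less than their spread over both labels, and Trbv3 was above Trbv1 under the scrambled label and below it under the Pgam label.

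Trbv1 had the lowest adjusted p of any segment share. Its level overlapped between the labels (log2 difference 0.07, SE 0.121, adjusted p 0.723 in edgeR), so its share was larger in a chain whose sum was lower. The log2 difference in share was 0.36 (SE 0.113, adjusted p 0.0529 in edgeR and 0.0507 in DESeq2), which misses the threshold. Trbv19 was likewise higher in share in every library labelled Pgam ASO than in any labelled scrambled ASO, with 289, 399 and 217 counts against 262, 243 and 291, or 9.53% ± 1.26 and 11.3% ± 0.430 (SD, n = 3; adjusted p 0.217 in edgeR).

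The called segments of the beta chain held smaller shares under the Pgam label, a direction largely fixed by picking them for their lower level in the same libraries. Trbv12-2 went from 5.58% ± 0.546 to 3.91% ± 0.613 of Trbv counts (SD, n = 3; log2 difference -0.51, adjusted p 0.0791 in edgeR). Trbv13-3 went from 3.01% ± 0.313 to 2.21% ± 0.0866 (log2 difference -0.44, adjusted p 0.165 in edgeR). Trbv15 had 5.87% ± 0.267 and 4.79% ± 0.555, and Trbv20 had 5.43% ± 0.389 and 4.43% ± 0.444. The shares of these 4 segments did not overlap between the labels, and none passed the test. Trbv13-1 and Trbv13-2, the relatives of Trbv13-3, overlapped in share, as did Trbv12-1, the relative of Trbv12-2.

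**Figure D3:**
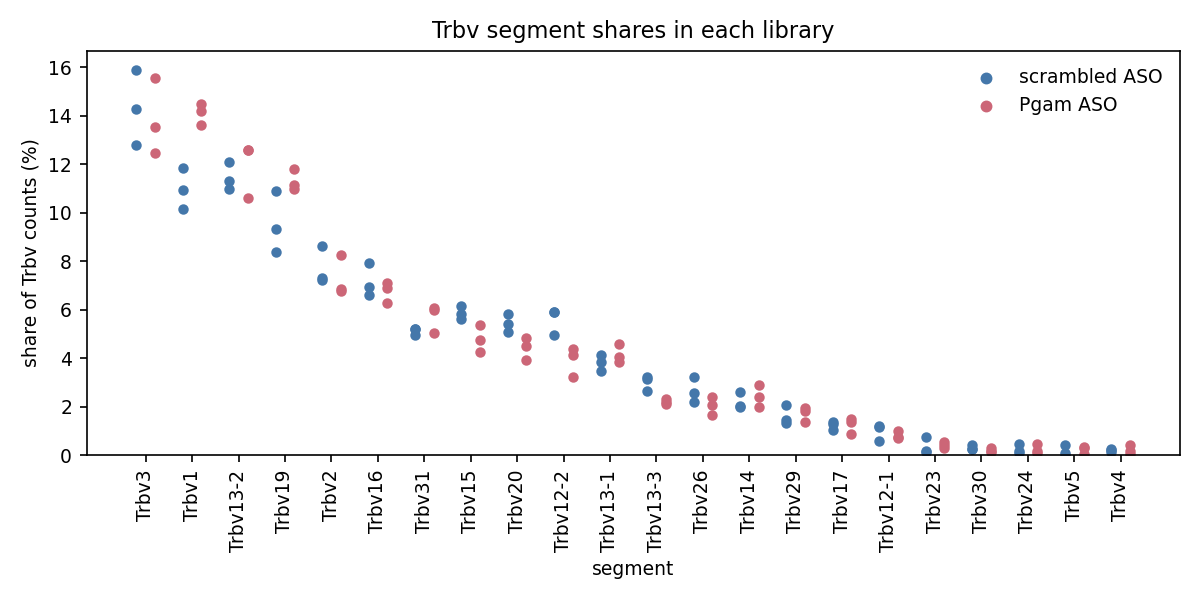
Share of Trbv counts (%) of each of the 22 Trbv members, with 1 point per library, ordered by mean share. Trbv3, Trbv1, Trbv13-2 and Trbv19 stand above the rest under both labels, and the labels separate for Trbv1, Trbv19, Trbv15, Trbv20, Trbv12-2 and Trbv13-3.

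Trbv2, Trbv16 and Trbv31, of middle rank in the beta chain, overlapped between the labels in share. Trbv2 had 267, 265 and 189 counts under the scrambled label and 152, 150 and 215 under the Pgam label. Trbv16 had 205, 254 and 205 counts against 139, 157 and 180. Trbv31 had 161, 191 and 128 counts against 133, 134 and 132. Trbv16 did not overlap in counts or CPM, and the other 2 did. Trbv31 lies on the minus strand beyond Trbc2 and so joins by inversion, and it held 5.12% ± 0.145 and 5.70% ± 0.561 of Trbv counts (SD, n = 3). Of the 22 Trbv genes annotated as functional 21 were members, and of the 13 annotated as pseudogenes 1 was, Trbv24, with 6, 17 and 2 counts against 2, 10 and 4.

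The germline ends of the most used and least used functional Trbv members are printed below, because the end of the segment is where it is joined and where the receptor's variable loop begins. Each line gives the last 60 bases of the transcript (GENCODE M21, GRCm38, chromosome 6, plus strand), with capitals on the first TGT or TGC in frame within the last 30 bases, which codes for a cysteine. The first 3 lines are the most counted and the last 3 the least counted.
Trbv3: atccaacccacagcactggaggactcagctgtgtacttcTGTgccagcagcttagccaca
Trbv1: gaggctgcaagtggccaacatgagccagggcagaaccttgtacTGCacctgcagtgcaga
Trbv13-2: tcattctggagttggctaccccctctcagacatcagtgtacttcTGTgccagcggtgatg
Trbv30: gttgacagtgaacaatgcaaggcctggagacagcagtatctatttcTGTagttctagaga
Trbv4: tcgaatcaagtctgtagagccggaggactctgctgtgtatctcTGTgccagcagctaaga
Trbv5: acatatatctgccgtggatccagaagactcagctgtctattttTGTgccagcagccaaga
All 130 functional Trav and Trbv genes with a reading frame had such a triplet, TGT in 115 and TGC in 15. Trbv1 holds TGC and has a further TGC in frame behind it. The letters TGTGC, read on the coding strand, stood in the last 25 bases of 105 of the 130 (80.8%), among them 19 of 22 Trbv genes. Trbv4 ends on an in-frame TAA, 2 bases from its end, and was the only functional segment with a stop in frame. Joining often trims the last bases of a segment.

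The least used members had too few counts for a test. Trbv30 had 13, 10 and 7 counts in the libraries labelled scrambled ASO, against 4, 7 and 3 in those labelled Pgam ASO. Trbv4 had 4, 9 and 6 counts against 9, 1 and 4, and Trbv5 had 0, 4 and 11 counts against 7, 1 and 9. All 3 overlapped between the labels. Trbv4 and Trbv5 share 73.6% and 78.7% of their 31-base stretches with other transcripts, and 15 of the 22 Trbv members share none. On the scale of summed counts, the Trbv genes just inside the rule were Trbv5 (32), Trbv4 (33) and Trbv24 (41), and those just outside were Trbv12-3 (9), Trbv22 (6) and Trbv25 (5).

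The alpha chain was spread over many more segments, none of them with a share as large as those of the leading Trbv segments. Trav7-4 was the most counted, with 58, 77 and 37 counts in the libraries labelled scrambled ASO, against 47, 56 and 64 in those labelled Pgam ASO. Its share of Trav counts was 4.57% ± 1.45 and 6.24% ± 0.0855 (SD, n = 3; log2 difference 0.44, adjusted p 0.279 in edgeR). Its counts overlapped and its shares did not, but it has 88.6% of its 31-base stretches in common with other transcripts. Summed with its d and n copies it held 7.60% ± 1.59 and 8.82% ± 0.165 of all Trav counts (SD, n = 3), with overlap, and a log2 difference of 0.21 (adjusted p 0.521 in edgeR). Trav9-1 had 66, 34 and 21 counts against 34, 46 and 43, Trav9-4 had 55, 49 and 46 against 19, 28 and 41, and Trav9-2 had 50, 56 and 28 against 12, 45 and 34. In share of the chain these 3 relatives overlapped between the labels.

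Other Trav segments stood out in share without passing the test. Trav3-3 had 36, 29 and 28 counts under the scrambled label and 29, 31 and 39 under the Pgam label, or 2.49% ± 0.226 and 3.70% ± 0.202 of Trav counts (SD, n = 3; adjusted p 0.17 in edgeR). Trav7-6 had 18, 22 and 10 counts against 2, 5 and 9, or 1.32% ± 0.438 and 0.564% ± 0.298 (log2 difference -1.17, adjusted p 0.143 in edgeR). Trav19 had 17, 20 and 22 counts against 8, 10 and 10. The labels did not overlap in these 3 shares, with Trav3-3 higher and Trav7-6 and Trav19 lower under the Pgam label. Summed with its copy Trav7n-6, however, Trav7-6 had 24, 51 and 15 counts against 3, 25 and 38, which overlapped, and the log2 difference in share was -0.02 (adjusted p 0.986 in edgeR). Trav7-6 and Trav19 were chosen for mention after their values were seen.

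**Figure D4:**
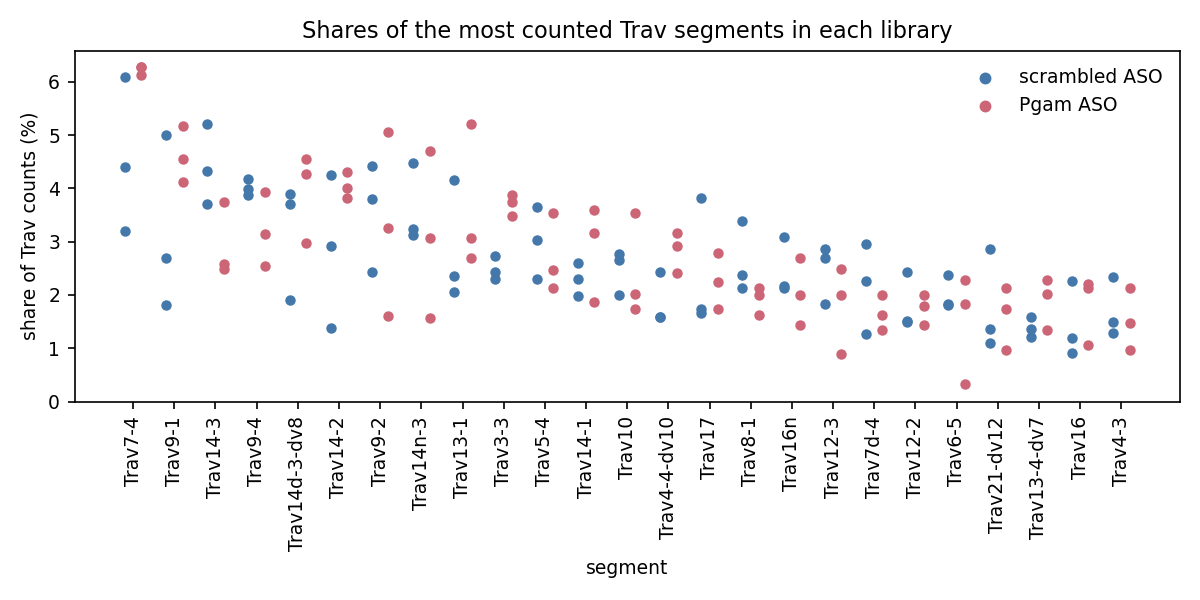
Share of Trav counts (%) of the 25 most counted Trav members, with 1 point per library, ordered by mean share. Shares fall off slowly from segment to segment, libraries of the same label scatter widely, and most segments overlap between the labels.

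Per kilobase of exon, Trav7-4 led with a mean of 7.40 ± 1.48 CPM, followed by Trav14-3 at 6.17 ± 2.45, Trav9-1 at 6.06 ± 2.15 and Trav13-1 at 6.03 ± 1.80 (SD, n = 6). These neighbours do not differ beyond their spread over both labels. By mean level per kilobase Trav14-3 led under the scrambled label and Trav7-4 under the Pgam label. Trav14-2 had 56, 37 and 16 counts in the libraries labelled scrambled ASO, against 30, 34 and 45 in those labelled Pgam ASO. Trav13-1 had 31, 26 and 48 counts against 39, 24 and 32. Both overlapped between the labels. Across segments, mean shares under the Pgam label followed those under the scrambled label, with Pearson r 0.883 for the 71 Trav and 0.978 for the 22 Trbv members. The points of each chain share libraries and chain totals and are not independent.

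How evenly segments were used can be put as an effective number, the number of equally used segments that would give the same Shannon entropy. For Trav it was 48.9, 51.0 and 49.4 in the libraries labelled scrambled ASO, against 46.0, 47.0 and 45.7 in those labelled Pgam ASO. For Trbv it was 14.2, 14.6 and 14.3 against 13.6, 13.6 and 13.9. Every library labelled Pgam ASO was below every library labelled scrambled ASO in both chains, by 7.10% of the mean for Trav and 4.58% for Trbv (exact permutation p 0.1 each, two-sided, the smallest possible). The 5 Trbv segments most counted over all 6 libraries together held 54.0% ± 0.957 of Trbv counts under the scrambled label. Under the Pgam label the same 5 held 58.5% ± 0.150 (SD, n = 3; exact permutation p 0.1). For Trav the 5 most counted over all libraries held 19.7% ± 2.70 and 20.3% ± 1.78, with overlap (exact permutation p 0.8). The single most counted Trav segment of each library held 5.43% ± 0.574 and 6.24% ± 0.0855, without overlap (exact permutation p 0.1). That of Trbv overlapped between the labels. The libraries with the lower effective numbers also had fewer Trav counts. With a Miller-Madow correction for the number of counts, the effective number of Trav segments was 51.1 ± 1.16 and 48.0 ± 0.792 (SD, n = 3). With d and n copies summed, the difference in Trav shrank from -3.53 to -1.42 (exact permutation p 0.2), and with segments of at least 100 counts it was -0.607 (exact permutation p 0.2), both more than 1.5 times smaller.

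The spread of segment use between libraries was compared inside and across labels. For each pair of libraries, a chi-square of the segment counts was divided by its degrees of freedom. A value of 1 covers counting error only, and separate cultures would be above it. For Trbv the 9 pairs across labels gave 2.66 to 3.87, with a median of 3.10, and the 6 pairs inside a label 1.47 to 3.52, with a median of 1.91. The highest values inside a label, 2.74 and 3.52, were those of scrambled ASO replicate 3. For Trav the pairs inside a label gave 2.17 to 3.45 and those across 1.87 to 3.37, with overlap. Over all 14936 genes tested, the same measure was 7.39 to 27.1 inside a label and 17.0 to 88.2 across. Pairs share libraries, so no test was made.

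Trav counts were spread unevenly along chromosome 14, which is given as a description. Trav genes repeat there: many segments have near copies, named with d or n, from duplications of a block of the locus. In 4 blocks of 32 Trav genes each, ordered from the 5' end, the shares of Trav counts were 10.5% ± 1.04, 10.7% ± 1.75, 34.0% ± 3.60 and 44.9% ± 3.27 in the libraries labelled scrambled ASO (SD, n = 3). Under the Pgam label they were 10.3% ± 0.970, 9.40% ± 0.112, 37.0% ± 2.20 and 43.3% ± 2.93. Each block overlapped between the labels, and the blocks nearest the joining segments and Trac held most counts under both. The d and n copies lie between a few genes without a letter at the 5' end and the many at the 3' end.

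**Figure D5:**
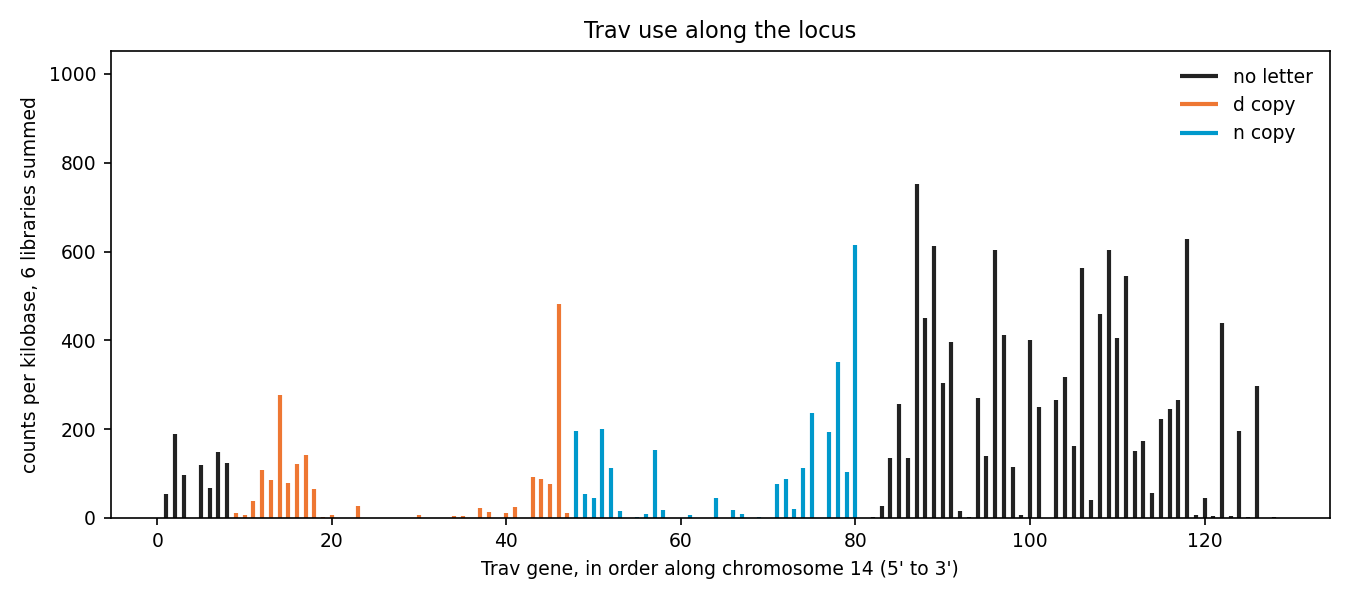
Counts per kilobase of exon, summed over 6 libraries, for the 128 Trav genes in their order along chromosome 14, coloured by copy type. Counts gather at the 3' end, and the tallest bar is Trav7-4, a gene with no copy letter.

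Genes without a copy letter gave 73.7% ± 0.563 of Trav counts under the scrambled label and 74.2% ± 2.94 under the Pgam label, d copies 10.6% ± 0.588 and 10.7% ± 1.71, and n copies 15.7% ± 0.891 and 15.1% ± 2.50 (SD, n = 3). The labels overlapped in all 3. Among the members were 43 of 55 genes without a letter, 13 of 39 d copies and 15 of 34 n copies. These shares rest on how reads were divided among copies: 50 of the 71 Trav members share at least 50% of their 31-base stretches with other transcripts, and 5 share all of them. Of the functional Trav and Trbv genes, 30 fall into 15 pairs with the same transcript sequence.

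Among such pairs were 2 segments whose counts came wholly or mostly from a single library. Trav6n-7 had 40 counts in Pgam ASO replicate 1 and 0 in the other 5 libraries. Trav4n-4 had 27, 3 and 0 counts in the libraries labelled scrambled ASO, against 0, 1 and 0 in those labelled Pgam ASO, most of them in scrambled ASO replicate 1. Neither passed the filter, and both were chosen for mention after their values were seen. Trav6n-7 has the same transcript as Trav6d-7 (9 counts in all), and Trav4n-4 the same as Trav4d-4 (0 counts). Trav6-7-dv9, with 12, 11 and 11 counts against 6, 9 and 8, is a near copy of Trav6n-7 that spread evenly over the libraries. The ends of these copies are printed to show how little sets them apart, as the last 60 bases of the transcript (chromosome 14, plus strand), with capitals as above.
Trav6n-7: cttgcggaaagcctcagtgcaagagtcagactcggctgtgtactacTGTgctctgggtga
Trav6-7-dv9: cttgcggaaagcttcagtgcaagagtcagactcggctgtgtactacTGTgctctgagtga
From Trav6n-7 to Trav6-7-dv9, counted from 1 at the first base printed, the differences are C13T and G56A, and 98.3% of 358 bases are the same. With Trav6d-7 and Trav6-7-dv9 added, Trav6n-7 had 15, 11 and 14 counts under the scrambled label, against 47, 11 and 8. With Trav4d-4 and Trav4-4-dv10 added, Trav4n-4 had 48, 23 and 28 counts against 18, 27 and 33. The highest count of each sum stayed in the same library as before. Without the filter on low counts, Trav4n-4 alone was called in share of its chain, on counts mostly from scrambled ASO replicate 1.

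On the scale of summed counts, the Trav genes just inside the rule were Trav4-2 (10), Trav13d-1 (11) and Trav6d-3 (14). Just outside were Trav3d-3 (9), Trav6d-7 (9), Trav5n-4 (7) and Trav9d-4 (7). Of the 57 Trav genes left out, 27 had 0 counts and 30 had 1 to 9. A floor of 3 counts is 0.162 to 0.193 CPM in these libraries, for counting error only. Of 108 functional Trav genes 68 were members, and of 20 annotated as pseudogenes 3 were (Trav8-2, Trav13-3 and Trav9n-1). The pseudogenes held 1.93% ± 0.656 and 1.503% ± 0.555 of Trav counts (SD, n = 3), overlapping between the labels.

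Some Trav segments mark T cells with a fixed receptor. Invariant NKT cells use Trav11 or Trav11d joined to Traj18, and Trav11 had 1 count and Trav11d 2 counts in all libraries together. MAIT cells use Trav1 joined to Traj33, and Trav1 had 1, 5 and 6 counts under the scrambled label and 4, 4 and 0 under the Pgam label. These segments were at or near the floor, and Klrb1c, a defining marker of NKT cells in this strain, had 0 counts. The 4 markers of invariant NKT cells summed to 1.07, 1.46 and 1.49 CPM against 2.24, 1.28 and 1.60, mostly Zbtb16. Of the Trav members, 8 carry a second name as delta segments and can join to either chain.

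Of 74 Traj and Trbj joining segment genes, 53 were tested and 2 were called, Traj3 and Traj16, both lower, a smaller share than the 9.15% of all genes tested. edgeR gave the 53 a median log2 difference of -0.39, beside -0.0061 over all genes tested. Traj16 had 29, 30 and 30 counts in the libraries labelled scrambled ASO, against 8, 8 and 11 in those labelled Pgam ASO (log2 difference -1.60, SE 0.353, adjusted p 0.0175 in edgeR). Traj3 had 68, 60 and 45 counts against 27, 20 and 22 (log2 difference -1.21, SE 0.279, adjusted p 0.021 in edgeR). The labels did not overlap in either gene. Both calls ended without scrambled ASO replicate 1 (adjusted p 0.0637 for Traj16 and 0.0873 for Traj3) and without Pgam ASO replicate 2 (0.0878 and 0.098), and that of Traj16 also without Pgam ASO replicate 1 (0.0662). Summed Trbj stood at 51.1 ± 12 CPM and 35.8 ± 1.99 CPM (SD, n = 3; exact permutation p 0.1) and summed Traj at 69.3 ± 11.9 and 53.6 ± 7.97 (exact permutation p 0.3). The Trbj1 cluster held 68.6% ± 1.22 of Trbj counts under the scrambled label and 66.7% ± 2.64 under the Pgam label. This share overlapped between the labels, like that of Trbc1 in Trbc counts, although the summed Trbj level did not.

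The receptor reaches the surface with the CD3 chains and signals through Lck, Zap70 and adaptors. Of 14 genes in that list, all 14 were tested and 2 were called, both lower. Among all genes tested, 9.15% were called lower and 17.2% in either direction. The median log2 difference was -0.24 in edgeR. Cd3e, a CD3 chain, had 3706, 4250 and 2759 counts in the libraries labelled scrambled ASO, against 2284, 2503 and 2844 in those labelled Pgam ASO (log2 difference -0.37, adjusted p 0.052 in edgeR and 0.0265 in DESeq2). Cd28, the costimulatory receptor, had 7710, 8693 and 6403 counts against 4357, 4344 and 4594 (log2 difference -0.66, SE 0.086, adjusted p 0.00183 in edgeR). Trat1, an adaptor bound to the receptor complex, had 592, 845 and 426 counts against 299, 370 and 403 (log2 difference -0.67, SE 0.191, adjusted p 0.0406 in edgeR). Cd28 and Trat1 did not overlap between the labels, and Cd3e did by a single library in counts but not in CPM. The call of Trat1 ended without scrambled ASO replicate 1 (adjusted p 0.094) or 2 (0.0934) and without Pgam ASO replicate 1 (0.123) or 2 (0.116). Lck, Zap70, Lat, Lcp2 and Cd247 had log2 differences from -0.07 to 0.12.

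Of the 4 genes of receptor rearrangement and the early receptor, Rag2 and Ptcra had 0 counts and Rag1 had 17 in all libraries together. Dntt, the polymerase that adds bases where segments are joined, had 234, 283 and 192 counts under the scrambled label and 14, 20 and 35 under the Pgam label. The labels were far apart, with a log2 difference of -3.24 (SE 0.28, adjusted p 0.000395 in edgeR), and Dntt was the list's only gene tested.

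The gamma chain genes that were called differed in the other direction from the summed Trav and Trbv levels. Of 18 gamma and delta receptor genes 5 were tested and 4 were called, all of them gamma chain genes and higher. Among all genes tested, 8.03% were called higher and 17.2% in either direction. Tcrg-C2 had 58, 61 and 78 counts in the libraries labelled scrambled ASO, against 160, 231 and 203 in those labelled Pgam ASO (log2 difference 1.69, SE 0.227, adjusted p 0.00229 in edgeR). Tcrg-C4 had 37, 35 and 40 counts against 121, 88 and 118 (log2 difference 1.64, SE 0.231, adjusted p 0.00279 in edgeR). Both are constant genes of the gamma chain, and their labels did not overlap. Tcrg-C1 and Trgv2, also called, had log2 differences of 1.23 and 1.14. The call of Tcrg-C1 ended without scrambled ASO replicate 1 (adjusted p 0.0535) and without Pgam ASO replicate 2 (0.0797), and that of Trgv2 without any library but scrambled ASO replicate 3, at adjusted p from 0.0684 to 0.104. Trdc, the constant gene of the delta chain, had 66, 79 and 53 counts against 45, 46 and 47 (log2 difference -0.40, adjusted p 0.248 in edgeR). The summed level of the 18 genes was 13.7 ± 1.22 CPM and 30.02 ± 2.42 CPM (SD, n = 3), far under that of Trbc1 and Trbc2, and Tcrg-C2 was the most abundant.

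Transcripts of other cells were present in these unsorted cultures and some moved with the labels. The 7 B cell markers, all tested, summed to 345, 467 and 237 CPM in the libraries labelled scrambled ASO, against 95.4, 129 and 158 in those labelled Pgam ASO, almost all of it Ighm. Ighm had 5685, 8271 and 3481 counts against 1217, 1728 and 2401 (log2 difference -1.58, SE 0.331, adjusted p 0.0282 in edgeR), the labels not overlapping. The call of Ighm ended without scrambled ASO replicate 1 (adjusted p 0.0792) or 2 (0.0954) and without Pgam ASO replicate 1 (0.0639) or 2 (0.102), and also without the filter on low counts (0.106). Of the 350 immunoglobulin genes, 281 had 0 counts. Among the 2 CD8 markers, Cd8a had 44, 57 and 36 counts against 113, 57 and 106 (log2 difference 1.12, SE 0.287, adjusted p 0.0286 in edgeR), sharing a value between the labels in counts but not overlapping in CPM. It was not called without scrambled ASO replicate 1 (adjusted p 0.099) or Pgam ASO replicate 1 (0.1). Cd8b1, the partner chain, had 156, 193 and 139 counts against 122, 113 and 159, with overlap.

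Markers of the remaining cell types were low. The 5 gamma delta markers, led by Tcrg-C2, summed to 11.4, 11.6 and 13.3 CPM under the scrambled label and 25.7, 28.9 and 27.2 under the Pgam label. The 3 dendritic markers, led by Zbtb46, summed to 6.81, 6.97 and 7.87 CPM against 6.71, 5.45 and 4.20. Neither of these sums overlapped between the labels, the first being higher and the second lower under the Pgam label. In the dendritic list only Zbtb46 was lower, from 6.43 ± 0.527 to 4.32 ± 1.38 CPM (SD, n = 3), while Itgax and Flt3 had higher means under the Pgam label. In the gamma delta list the gamma chain genes described already were higher, and Trdc had a lower mean under the Pgam label. The 5 myeloid markers, led by Lyz2, summed to 2.98, 3.51 and 1.80 CPM against 2.79, 2.31 and 3.08. The 3 erythroid markers, led by Alas2, summed to 2.59, 2.16 and 1.42 CPM against 1.30, 1.86 and 1.60. Both of these overlapped. The B cell sum, like the dendritic one, was lower under the Pgam label with no overlap. The part of these cells in the lower level of Trav, Trbv, Trac and Trbc transcripts was not tested.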

How the data were processed

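The authors deposited estimated counts per gene, made with Kallisto from polyadenylated RNA against a GRCm38 reference and written as whole numbers, in 6 columns, all of them used. The members and the gene lists were chosen with earlier results of these data known. Genes were tested with edgeR 4.0.16 in R 4.3.3 (filterByExpr, TMM, robust quasi-likelihood fit, two-sided, Benjamini-Hochberg over 14936 genes, threshold 0.05), with the label as the only term. In a second fit the offset of each Trav or Trbv segment was the log of the summed counts of the members of its chain in that library. The method was tested on simulated data. Single values per library were compared with an exact permutation test over the 20 assignments. Exon lengths, positions, biotypes and shared 31-base stretches came from GENCODE M21. The release used by the authors is not given in the sources used here. Named genes were the constant genes, the 10 Trbv and 10 Trav members with the largest mean shares, the called members, the segments of invariant NKT and MAIT cells, the genes nearest the count minimum, Pgam1, Pgam2 and the genes of the lists. Others are marked as chosen after their values were seen, or stand beside a relative. Alternatives were DESeq2 1.42.0, RLE factors, library size alone, no filter, copies summed, pseudogenes left out, counts per length, a minimum of 100 counts, the inverse Simpson index, the replicate number as a block, and each library left out in turn. Chosen after seeing the data were the Miller-Madow correction, leaving out segments with over 50% of counts in 1 library, and library size alone for the count of receptor genes called.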

Additional observations from a re-analysis of the deposited data

How the results depend on the processing

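The count of 6 receptor genes called went to 0 with the replicate number as a block, and to between 0 and 5 with a library left out. The labels share only a number between replicates. In residuals over genes, libraries of the same number had a mean r of -0.0857 and those of other numbers 0.0433, and 1 of the 3 scrambled ASO libraries correlated best with its own number. With a library left out or the block, calls over the whole table were fewer too in most settings, 1235 with the block and from 391 to 3484 with a library left out, beside 2565. DESeq2, RLE factors, no filter and summed copies gave 5 to 7 receptor genes, and library size alone gave 8. Without the filter the call of Trbv13-3 ended (adjusted p 0.0566 in edgeR), while Trbc1 and Trav4n-4 were called. Of segment shares, 0 were called with each library left out, with DESeq2 and with the block. Without the filter 1 was called, Trav4n-4, which had 27 of its 31 counts in a single library.

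The sums and effective numbers kept their direction in every alternative run. With a library left out, the difference in summed Trav lay between -19.48 and -11.85 CPM and in summed Trbv between -41.61 and -22.67 CPM. That in the effective number lay between -3.973 and -2.903 for Trav and between -0.7674 and -0.5215 for Trbv. Among 117 named genes none changed sign past the threshold in the level fits run, and of 17 calls 10 ended with the block, 13 without scrambled ASO replicate 1, 12 without Pgam ASO replicate 2 and 11 without Pgam ASO replicate 1. With the block the calls of Ighm (adjusted p 0.0539), Trat1 (0.054), Cd8a (0.0699) and Trgv2 (0.0753) ended, beside those of the 6 receptor genes. The cause was not tested. Depth limits the alpha chain most, where 33 of 71 members had too few counts to test. Reads of near copies were divided by the authors' software, so single Trav copies are less certain than their sums.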
